A study of Mus musculus with 6 samples.

Results

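Amino acid transporters of the solute carrier families Slc1, Slc7, Slc36, Slc38 and Slc43 were described in the otic vesicle, the epithelial sac from which the inner ear forms, of mouse embryos at embryonic day 11.5. The members were all probe sets that the platform annotation gives to 1 gene symbol of these 5 families, 84 of 45037 probe sets, which read 38 of 18193 named genes. Of the 38 genes, 7 belonged to Slc1, 15 to Slc7, 4 to Slc36, 9 to Slc38 and 3 to Slc43. One more probe set that names Slc1a2 together with another gene was left out. Slc38a8, Slc38a11 and other members of the families without such a probe set were not analysed here.

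The Mest-KO group held 3 arrays of T-Cre conditional Tbx1 knockout vesicles, and the Control group held 3 arrays of T-Cre conditional Tbx1 heterozygotes. By these labels both groups were T-Cre conditional, and the controls were Tbx1 heterozygotes rather than wild type. The sample titles do not give the alleles. T-Cre is a recombinase of the early mesoderm, so the deletion was directed at the tissue around the vesicle rather than at the vesicle epithelium. Each array held RNA pooled from the left and right ears of 3 embryos of the same genotype, after dispase had been used to strip the surrounding tissue. The deposited intensities are linear, and 3 arrays per group limit the precision. Changes are Mest-KO minus Control in log2 units after quantile normalization, with the standard error (SE) of a limma fit across all genes and n = 3 arrays per group throughout.

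Cells cannot make all of their amino acids and move them across membranes with carriers of several kinds. Slc1 proteins take up glutamate or small neutral amino acids together with sodium, Slc38 proteins carry glutamine, alanine and related neutral amino acids with sodium, and Slc36 proteins carry small amino acids such as proline and glycine together with protons. The Slc7 family holds cationic amino acid carriers and the light chains of exchangers, which need the heavy chain Slc3a1 or Slc3a2 to reach the membrane, and Slc43 holds carriers of branched-chain and other large neutral amino acids that work without a partner. In growing tissue these carriers feed protein synthesis and the nutrient-sensing kinase complex mTORC1, and several of them are known targets of the transcription factor Atf4 when amino acids run short.

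The dissection was checked first. All 15 markers of otic and other epithelium lay above the filter used for dim probe sets (an intensity of 34.4, the 40th percentile), and their summed intensity was 55652 to 60898 in Mest-KO and 59777 to 64711 in Control. Markers of periotic and other mesenchyme, 16 of 18 above the filter, summed to 4290 to 9766 in Mest-KO and 4109 to 7766 in Control. Only 5 of 11 endothelial and 4 of 11 macrophage and leukocyte markers lay above it. Embryonic globins were bright on every array, with Hbb-y at 12521 to 15049.7 in Mest-KO and 13462 to 14525 in Control. Tbx1 was 910, 704 and 713 in Mest-KO and 898, 690 and 766 in Control. Where its probe set lies with respect to the deletion is not stated, and the deletion was aimed at mesoderm, so it is no test of the genotype. One array, Mest-KO 3, was set off along the leading principal component (35.0% of the variance) at 64.6, against -20.0 and -6.65 for the other Mest-KO arrays and -18.5 to -7.06 for the controls. Xist was 16.1 on Mest-KO 1 and Eif2s3y, a gene of the Y chromosome, was 12.1 on Control 2, against at least 2331 and 1373 on the other arrays, so these pools each held 1 sex.

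Slc36a2 was the transporter gene with the largest change. It encodes a proton-coupled carrier of glycine, alanine and proline, known from renal reabsorption of these amino acids and as a surface protein of brown fat cells. Its probe set had intensities of 54.3, 34.5 and 34.7 in Mest-KO, against 225, 183 and 226 in Control. The groups did not overlap, and the lowest Control array was more than 3 times as bright as the highest Mest-KO array. The means were 41.2 ± 11.4 in Mest-KO and 211 ± 24.6 in Control (SD, n = 3 each), a ratio of 5.14 of Control over Mest-KO on the deposited scale. On the log2 scale it differed by -2.57 (SE 0.342), with 95% limits of -3.39 and -1.74, which is 5.92-fold lower on the normalized scale. It had the fifth most negative change among the 12462 genes tested. In a bulk sample, fewer cells that express a gene and less RNA per cell cannot be told apart.

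Whether this change passes a test over all genes rests on how the variance is estimated and on how the arrays are normalized. With 1 variance prior for genes of every level, limma called 0 of the 27 transporter genes above the filter, against 0% of all genes, and Slc36a2 had an adjusted p of 0.259. With a prior that follows brightness (limma's trend option) 1 transporter gene was called, Slc36a2, with an adjusted p of 0.0116, against 0.104% of all genes. Without the trend but with the deposited scaling alone, its limma adjusted p was 0.0566. With median centring it was 4.10e-07, where 25 of 12459 genes were called. Over the other settings, including arrays left out, the adjusted p of Slc36a2 with the trend ran from 1.02e-12 to 0.148. It was above 0.05 without Mest-KO 2 (limma adjusted p 0.0527, or 0.0493 with probe sets and filter chosen anew), without Control 1 (0.148), without Control 2 (0.0697) and without Control 3 (0.107). The change itself stayed between -2.98 and -2.20 in all 24 alternatives that were run.

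The Mest-KO values of Slc36a2 lay at the edge of what the filter passes, and the gene passed it on its mean over all arrays. On Mest-KO 3 its normalized log2 level was 4.45, below the filter at 5.11, against 5.89 on Mest-KO 1 and 5.22 on Mest-KO 2, and 7.80, 7.62 and 7.84 on the controls. Before normalization, Mest-KO 3 and Mest-KO 2 were alike, at 34.7 and 34.5. The median intensity over all probe sets was 91.0 on Mest-KO 3, against 62.1 to 71.0 on the other arrays. With the deposited scaling alone the change was -2.39. Without Mest-KO 3 the change was -2.20, and without Mest-KO 1 it was -2.92. Between the pools that held both sexes it was -2.98. The mesenchyme sums overlapped between the groups, as did the summed markers of every other cell type list, but sums weigh the brightest markers most. Of the mesenchyme markers above the filter, Lum (log2 change -0.48), Pou3f4 (-0.43), Dcn (-0.20) and Foxc1 (-0.032) were lower in Mest-KO. The others were higher, from 0.040 (Tbx15) to 0.74 (Prrx1). Of the epithelial markers, Krt18 (-0.21), Krt8 (-0.20), Cldn6 (-0.11) and Epcam (-0.11) were lower. So were Eya1 (-0.078), Cdh1 (-0.030), Cldn7 (-0.013) and Oc90 (-0.00052). The remaining epithelial markers were higher, from 0.031 (Dlx5) to 0.35 (Gbx2). The part of epithelial and other cells in the low Slc36a2 signal was not tested.

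**Figure D1:**
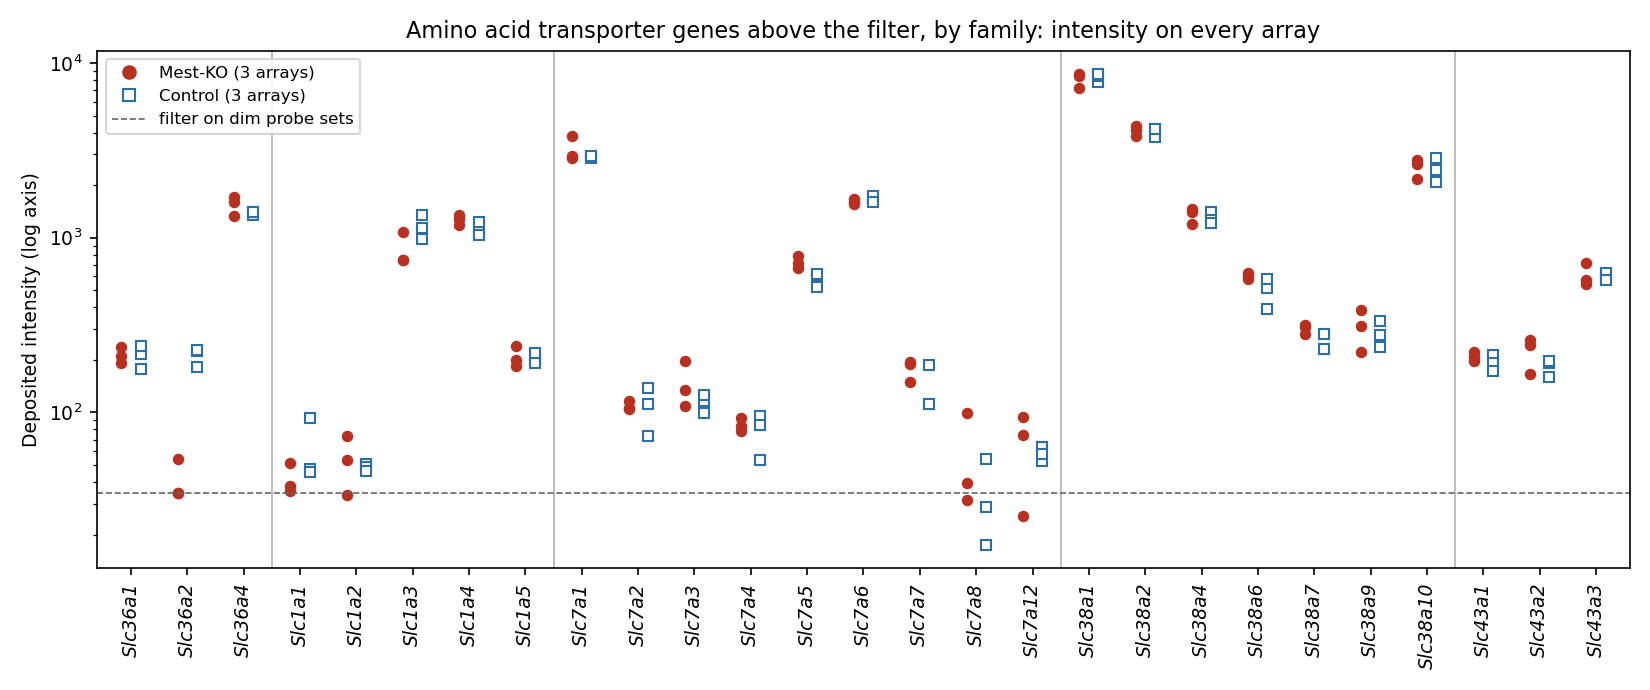
Deposited intensity (log axis) of the 27 transporter genes above the filter on each array, by family, with Mest-KO as filled circles left of Control as open squares and the filter as a dashed line. Slc36a2 is at 34.5 to 54.3 in Mest-KO and at 183 to 226 in Control, while most other genes have overlapping groups.

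Slc36a2 lies in a cluster with its paralogs, next to Slc36a3 on one side and Slc36a1 on the other in the RefSeq gene order of chromosome 11 (assembly GRCm38.p6). Slc36a1, the lysosomal and intestinal member of the family, was 211, 191 and 236 in Mest-KO and 215, 178 and 242 in Control. The 2 groups overlapped throughout, and its log2 change was -0.049 (SE 0.119, 95% confidence interval from -0.34 to 0.24). Slc36a3, known from testis, stayed below the filter at 20.9, 12.6 and 42.9 in Mest-KO and 22.6, 28.1 and 21.7 in Control. Slc36a4, a high-affinity proline and tryptophan carrier encoded on another chromosome, was 1598, 1711 and 1337 in Mest-KO and 1357, 1405 and 1402 in Control, a log2 change of 0.15 (SE 0.108). The proton-coupled family held 1 gene with a large difference and 2 others above the filter whose groups overlapped.

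The neighbouring genes were then read in the same way. Of the 8 protein-coding genes on each side of Slc36a2, 9 of the 16 lay above the filter, among them Gm2a, which encodes the ganglioside activator protein, and Sparc, a matrix protein gene. The log2 changes of these 9 ran from -0.083 to 0.061, and limma called 0 of them, with a smallest unadjusted p of 0.549. Gm2a was 1780, 1759 and 1948 in Mest-KO and 1792, 1701 and 1840 in Control.

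**Figure D2:**
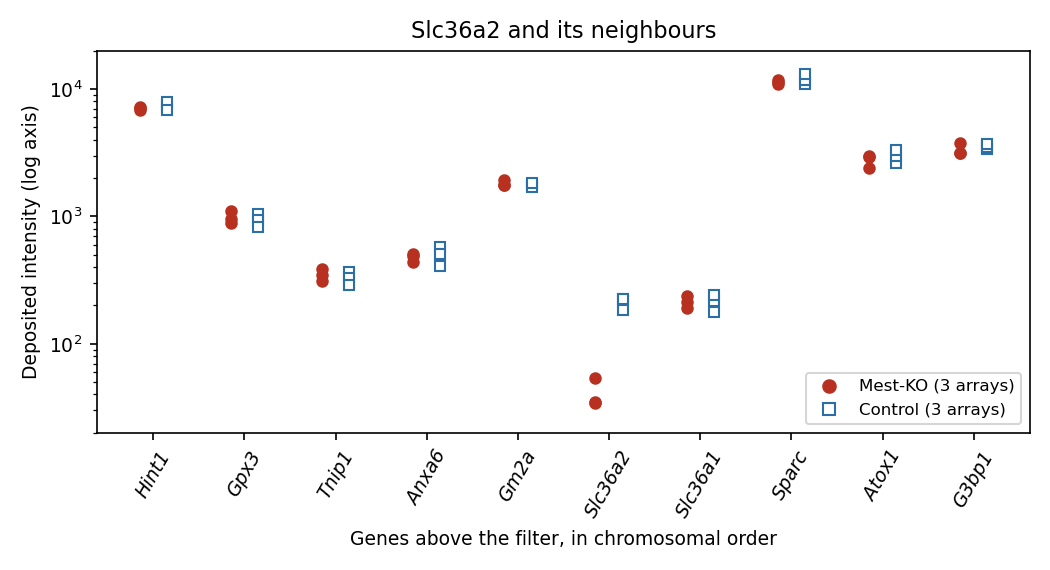
Deposited intensity (log axis) of Slc36a2 and the 9 neighbouring genes above the filter, in chromosomal order, with Mest-KO as filled circles left of Control as open squares, 3 arrays each. Slc36a2 is the gene whose groups stand apart, and the log2 changes of its neighbours run from -0.083 to 0.061.

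Across the 5 families, 27 of the 38 genes lay above the filter. Mest-KO was higher in 18 of them and lower in 9, and the median log2 change was 0.039, against -0.0033 over all genes tested. The share with a change above 0 was 66.7%, against 49.1% of all genes, but most of these changes were small, with 20 of 27 under 0.25 in size. Unadjusted p-values under 0.05 were found for 3 genes (11.1%), against 5.14% of all genes, and in 3 genes (11.1%) the normalized groups did not overlap, against 10.6% of all genes. These were the same genes, Slc36a2, Slc1a1 and Slc7a5. The limma interval held 0 for the other 24 genes. For 23 of the 27 it stayed within a log2 change of 1 in either direction, and the exceptions were Slc36a2, Slc1a1, Slc7a8 and Slc7a12. With the trend, the interval of Slc1a1 held 0 (-1.50 to 0.14) and that of Slc1a3 did not (-0.79 to -0.099). Their limma adjusted p-values with the trend were 0.846 and 0.741. Tested as single probe sets, 0 of the 50 above the filter were called, against 0% of all probe sets, and with the trend 1 was, again Slc36a2, against 0.0518%. The groups did not overlap in 5 of the 50 (10%), against 9.37% of all probe sets.

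**Figure D3:**
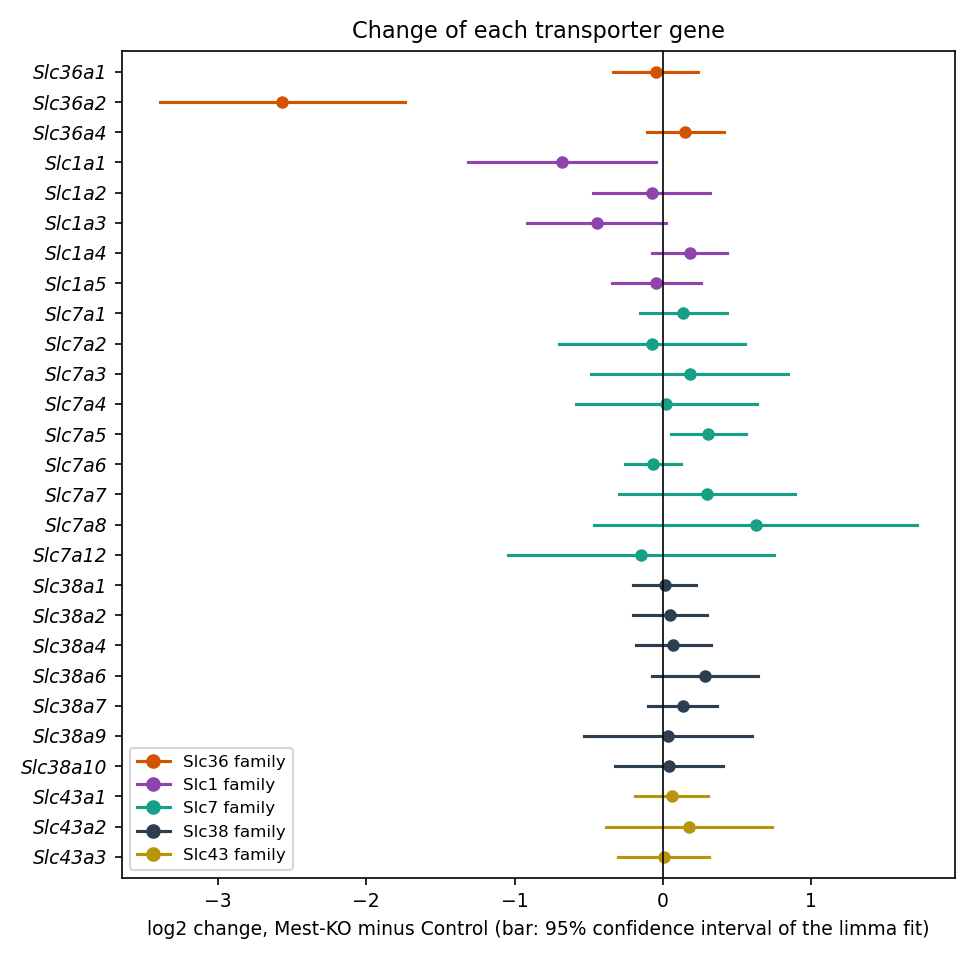
Log2 change (Mest-KO minus Control) of the 27 transporter genes above the filter, by family, with the 95% confidence interval of the limma fit. Slc36a2 lies at -2.57, and 24 intervals hold 0.

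Short DNA elements in some transporter promoters are known to bind Atf4 with C/EBP partners, and this C/EBP-ATF composite element was searched as TGATG, any base, then AA, on both strands. RefSeq promoters, 250 bases before to 50 after each start on GRCm38.p6, were matched for 27 of the 38 genes, 38 promoters in all. Slc36a2 was not among the genes matched, so its promoter was not searched for either motif below. The C/EBP-ATF element was found in 4 of the 38 promoters, against 3.97% of all 32851 promoters. The 4 belonged to Slc7a11, Slc1a4 and, with 2 starts that share 1 of the matches, Slc7a7. They are shown because they are the members whose promoters hold the element, which is in capitals on either strand.
Slc7a11, chr3:50443564-50443863, minus strand: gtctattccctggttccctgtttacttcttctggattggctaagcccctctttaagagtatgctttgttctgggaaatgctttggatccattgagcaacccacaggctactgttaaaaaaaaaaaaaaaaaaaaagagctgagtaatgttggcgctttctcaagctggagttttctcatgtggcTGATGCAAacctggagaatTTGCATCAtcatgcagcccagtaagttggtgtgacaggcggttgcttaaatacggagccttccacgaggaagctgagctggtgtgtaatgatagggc
Slc1a4, chr11:20332664-20332963, minus strand: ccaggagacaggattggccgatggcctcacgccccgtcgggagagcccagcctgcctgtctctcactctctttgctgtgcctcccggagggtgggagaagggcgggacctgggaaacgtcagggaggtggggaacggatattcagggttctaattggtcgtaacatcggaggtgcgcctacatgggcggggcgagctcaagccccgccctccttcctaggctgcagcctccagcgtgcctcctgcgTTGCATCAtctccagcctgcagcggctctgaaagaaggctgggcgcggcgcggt
Slc7a7, chr14:54417895-54418194, minus strand: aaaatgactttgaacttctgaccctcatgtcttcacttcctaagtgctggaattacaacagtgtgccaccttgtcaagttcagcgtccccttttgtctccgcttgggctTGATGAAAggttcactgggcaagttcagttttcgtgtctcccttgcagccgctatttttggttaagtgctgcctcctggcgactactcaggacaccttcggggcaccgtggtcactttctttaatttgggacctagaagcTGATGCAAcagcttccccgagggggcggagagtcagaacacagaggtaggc
The Slc7a11 promoter holds the element once in each orientation, beginning 66 and 47 bases before the start, and in Slc1a4 it begins 4 bases before the start. The GATA-type motif AGATAAG was found in 2 of the 38 transporter promoters, those of Slc38a4 and Slc7a9, against 3.04% of all promoters. A match is a description of the letters and not a binding site.

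In the Slc1 family, 4 of the 5 genes above the filter were lower and 1 higher, and none passed limma's adjusted threshold. Slc1a1, the neuronal and epithelial glutamate and cysteine carrier, had the smallest p of the family. It was dim, at 35.5, 37.9 and 51.2 in Mest-KO and 47.4, 45.5 and 92.7 in Control. The deposited values overlapped, and after quantile normalization they did not. The log2 change was -0.68 (SE 0.261, limma adjusted p = 0.909), or -0.38 without Control 3, which held the highest value. Its other probe sets, both below the filter, gave -0.35 and -0.56.

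Slc1a3, the glutamate carrier of glia and of supporting cells of the ear, was 741, 1084 and 750 in Mest-KO and 1351, 982 and 1134 in Control. Mest-KO 2 lay among the controls, and the log2 change was -0.45 (SE 0.194, limma adjusted p = 0.909). All 4 of its probe sets above the filter were lower, from -0.78 to -0.38. The one at -0.78 had 29.8, 42.8 and 63.8 in Mest-KO and 76.1, 52.3 and 74.8 in Control, with an unadjusted limma p of 0.00278 and an adjusted p of 0.969. Slc1a3 was highest on Control 1, where Fabp7, a marker of glia and radial glia, was 1619, against 269.7 to 361 in Mest-KO and 396 and 191 on the other controls. Of the other markers on the neural crest and glia list, Sox10 was also highest on Control 1, at 5320.2, while Erbb3 (7421), Cdh6 (105) and Tfap2a (189.6) were lowest there of the 6 arrays. Of the whole list, 6 of 7 markers lay above the filter, and their sum, highest on Control 1 with Fabp7 in it, was 13116 to 14048 in Mest-KO and 13624 to 15122 in Control. Read from its most variable probe set, which lies below the filter, the change of Slc1a3 was -0.039. Without Control 1 it was -0.33, and the part of glial cells in it was not tested.

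The exchangers of small neutral amino acids in the same family had overlapping groups. Slc1a4, a serine and alanine exchanger, was 1279, 1177 and 1353 in Mest-KO and 1096, 1037 and 1238 in Control, a log2 change of 0.18 (SE 0.105). Its dimmer probe sets gave -0.14 and -0.082. Slc1a5, the glutamine exchanger ASCT2, differed by -0.046 (SE 0.124), with a 95% confidence interval from -0.35 to 0.25. Slc1a2, the main glutamate carrier of mature astrocytes, was dim at 33.6 to 73.3 in Mest-KO and 46.3 to 50.4 in Control, a log2 change of -0.076 (SE 0.163). Slc1a6 and Slc1a7, the carriers of Purkinje cells and of the retina, lay below the filter.

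In the Slc7 family, 6 of the 9 genes above the filter were higher and 3 lower. Slc7a5, the light chain of the large neutral amino acid exchanger LAT1, was 787, 720 and 667 in Mest-KO and 601, 519 and 618 in Control. Every Mest-KO array lay above every Control array. The means were 725 ± 60.2 in Mest-KO and 579 ± 52.8 in Control (SD, n = 3 each), a log2 change of 0.31 (SE 0.103, 95% confidence interval from 0.057 to 0.56). It did not pass over all genes (limma adjusted p = 0.909, unadjusted 0.0236, and adjusted 0.771 with the trend). The change stayed above 0 in all 18 alternatives, from 0.17 to 0.36.

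The heavy chains that such light chains bind had overlapping groups. Slc3a2, the partner of Slc7a5, was 1502, 1427 and 1364 in Mest-KO and 1652, 1344 and 1422 in Control, a log2 change of -0.034 (SE 0.103). Slc3a1, the partner of Slc7a9 in cystine uptake, was 281, 234 and 229 in Mest-KO and 238, 268 and 257 in Control, a log2 change of -0.10 (SE 0.126). Of the other light chains that bind Slc3a2, Slc7a6 was 1665, 1598 and 1566 in Mest-KO and 1721, 1736 and 1607 in Control (log2 change -0.064, SE 0.0780), with -0.030 at its second probe set. Slc7a7 differed by 0.29 (SE 0.245) and Slc7a8 by 0.62 (SE 0.449). Slc7a8 was dim and uneven, with 39.5, 31.4 and 98.7 in Mest-KO and 54.4, 17.5 and 28.8 in Control.

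Among the cationic amino acid carriers, Slc7a1, the widely expressed arginine and lysine carrier, was 2946, 3827 and 2869 in Mest-KO and 2899, 2865 and 2942 in Control. The excess lay on Mest-KO 2, and without that array the log2 change of 0.14 (SE 0.121) was 0.016. Slc7a2, the carrier induced in activated macrophages and found in liver, differed by -0.074 (SE 0.258). Slc7a3, an X-linked carrier known from brain, was 197, 135 and 108 in Mest-KO and 117, 98.7 and 126 in Control (log2 change 0.18, SE 0.276). Slc7a4 differed by 0.022 (SE 0.253). Outside the cationic carriers, Slc7a12 differed by -0.15 (SE 0.370).

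In the Slc38 family all 7 genes above the filter had a change above 0, from 0.012 to 0.28. None passed limma's adjusted threshold or had an unadjusted p under 0.05, and of the 4 followed through the alternatives Slc38a1, Slc38a2 and Slc38a10 turned sign under other settings while Slc38a6 did not. Slc38a1, a glutamine carrier of the system A type, was read by the brightest transporter probe set, with 8471, 8620 and 7197 in Mest-KO and 7804, 8455 and 8615 in Control. Its groups overlapped, and it differed by 0.012 (SE 0.0874) with 95% limits of -0.20 and 0.22. Slc38a2, the system A carrier that cells raise when amino acids are short, was 4379, 3833 and 4114 in Mest-KO and 4192, 3752 and 4197 in Control (log2 change 0.046, SE 0.103). Slc38a4, an imprinted system A gene, was 1408, 1456 and 1199 in Mest-KO and 1402, 1260 and 1210 in Control (log2 change 0.069, SE 0.105). In the RefSeq gene order of chromosome 15 Slc38a1, Slc38a2 and Slc38a4 lie side by side.

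Slc38a6, the Slc38 gene with the smallest p, was 610, 582 and 632 in Mest-KO and 513, 392 and 583 in Control. Control 3 lay just above Mest-KO 2, and the log2 change was 0.28 (SE 0.147, limma adjusted p = 0.909), or 0.14 without Control 2. Slc38a7, a lysosomal glutamine and asparagine exporter, was 316, 279.8 and 306 in Mest-KO and 279.7, 232 and 283 in Control (log2 change 0.13, SE 0.0966). Slc38a9, the lysosomal arginine sensor of mTORC1, was 313, 384 and 223 in Mest-KO and 336, 236.5 and 277 in Control (log2 change 0.033, SE 0.235). Its 6 probe sets above the filter ran from -0.32 to 0.080. Slc38a10 was 2655, 2771 and 2169 in Mest-KO and 2854, 2440.5 and 2088 in Control, a log2 change of 0.039 (SE 0.151).

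The 3 genes of the Slc43 family lay above the filter with overlapping groups. Slc43a2, the carrier LAT4, was 242, 260 and 166 in Mest-KO and 193, 197 and 159 in Control. Its log2 change was 0.18 (SE 0.232), and a second probe set of similar brightness gave 0.11. The change was 0.026 without Mest-KO 2 and 0.43 without Mest-KO 3. With the mean of its probe sets the change was -0.0029. Slc43a1, the related carrier LAT3, differed by 0.061 (SE 0.102), and Slc43a3, whose human protein carries purine nucleobases rather than amino acids, by 0.0039 (SE 0.126).

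Agreement between probe sets bounds how far these values carry. Of the 38 genes 17 had a single probe set, Slc36a2, Slc7a5 and Slc36a1 among them. For 11 genes several probe sets lay above the filter, and in 6 of these their signs differed. In the other 5 the signs were the same, and the widest shared shift was that of Slc1a3.

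**Figure D4:**
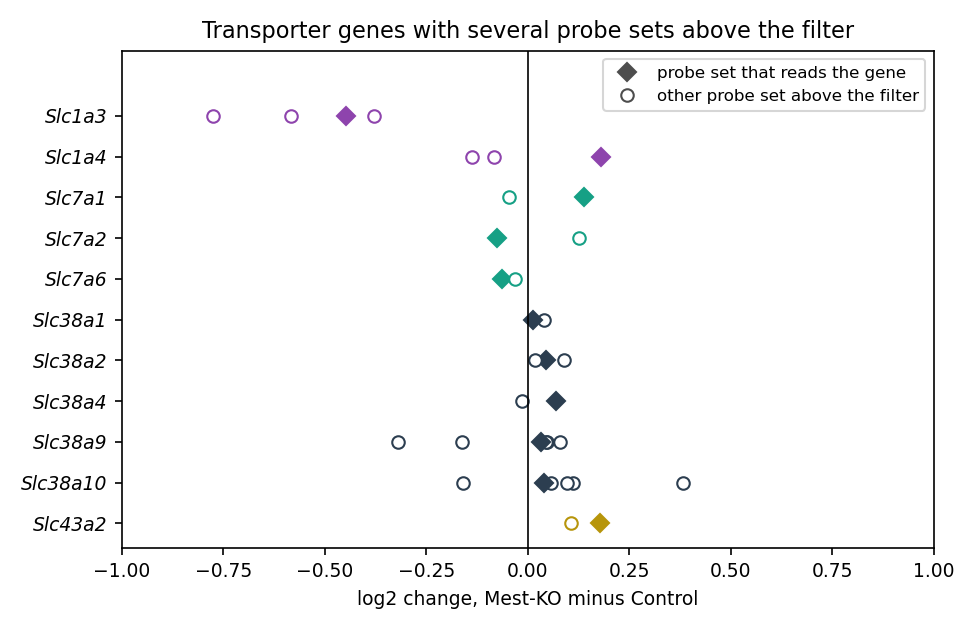
Log2 change (Mest-KO minus Control) at each probe set above the filter for the 11 transporter genes with several such probe sets. Filled diamonds are the probe sets that read the gene, and the 4 of Slc1a3 lie between -0.78 and -0.38 while 6 genes have values on both sides of 0.

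The 11 genes below the filter were Slc1a6, Slc1a7, Slc36a3, Slc38a3, Slc38a5, Slc7a9, Slc7a10, Slc7a11, Slc7a13, Slc7a14 and Slc7a15. Their single-array intensities ran from 0.958 to 62.1, and without a filter their log2 changes ran from -1.15 to 0.93. Slc7a11, the light chain of the cystine and glutamate exchanger that feeds glutathione synthesis, was the one whose groups did not overlap, at 16.9, 16.6 and 16.6 in Mest-KO and 32.8, 33.5 and 19.2 in Control. This difference of -0.88 is between values below the filter, and it was not called.

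Genes that work beside the transporters were counted on lists chosen with earlier results of these data known, and limma called 0 genes of each list, with and without the trend. Of the Gcn2 and Atf4 amino acid response list, 13 of 22 genes tested were higher and 9 lower, with a median change of 0.052. Atf4 itself was 4574, 4413 and 4049 in Mest-KO and 5149, 4448 and 4252 in Control (log2 change -0.049, SE 0.113). Asns, which encodes asparagine synthetase and is a standard Atf4 target, differed by 0.11 (SE 0.242). The member with the smallest p was Gpt2, a mitochondrial alanine transaminase gene, at 0.21 (SE 0.0865, limma adjusted p = 0.909). The 3 transporters whose promoters hold the C/EBP-ATF element were not called either, at -0.88 for Slc7a11 (below the filter), 0.18 for Slc1a4 and 0.29 for Slc7a7.

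Of the list for amino acid sensing at the lysosome, 15 of 30 genes were higher and 15 lower. Rraga, a Rag GTPase gene that recruits mTORC1, had the smallest p. It was 1748, 1510 and 1498 in Mest-KO and 1891, 1995 and 1844 in Control, and its log2 change was -0.27 (SE 0.0927, limma adjusted p = 0.909). Of other plasma membrane and vesicular or lysosomal carriers, 3 of 9 were higher and 6 lower. Slc6a15, a sodium-coupled carrier of branched-chain amino acids and proline known from neurons, was 497, 646 and 564 in Mest-KO and 414, 386 and 328 in Control. Its groups did not overlap, and the log2 change was 0.57 (SE 0.137, limma adjusted p = 0.749). The ganglion neuron markers, 14 of 14 above the filter, summed to 9127 to 9639 in Mest-KO and 8593 to 9389 in Control, and Isl1 gave the largest share of each sum. Single markers of the list went both ways, and no test is given for them. Nefl (log2 change -0.67), Nefm (-0.16), Tubb3 (-0.11) and Stmn2 (-0.076) were lower in Mest-KO. So were Gap43 (-0.076), Isl1 (-0.063), Snap25 (-0.040) and Elavl4 (-0.014). Pou4f1 (0.67), Neurog1 (0.33) and Dcx (0.12) were higher, as were 3 more markers, chosen after their values were seen. Insm1, a factor of newly formed neurons, was 253, 259 and 261 in Mest-KO and 86.2, 142 and 138 in Control (log2 change 1.04), and Neurod1, a neuronal differentiation factor, was 1945, 1379 and 1490.2 in Mest-KO and 994, 1122 and 1096 in Control (log2 change 0.57). Elavl3, an RNA-binding protein gene of neurons, was 119.9, 138 and 139.6 in Mest-KO and 110.2, 74.3 and 98.5 in Control (log2 change 0.38). The deposited values of the groups did not overlap at these 3 markers. Over all genes tested, the normalized groups did not overlap in 10.6%, and nothing is read from the 3 markers. The part of neurons in the Slc6a15 value was not tested.

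An unadjusted limma p under 0.05 was found for 1 of the 22 amino acid response genes, which was higher. It was found for 2 of the 9 other carriers, both higher. Of the 30 lysosomal sensing genes, 1 higher and 1 lower had such a p. In the remaining lists 0 genes did, against 5.14% of all genes. Nothing is read from these counts for lists of so few genes. Of the list of transport partners all 6 tested were lower (Slc3a2 turned to 0.050 without Control 1), with a median of -0.074, and the smallest p was that of Rhbdl3, a rhomboid-like gene whose link to amino acid transport is doubtful, at -0.72 (SE 0.421). Of mitochondrial amino acid carriers 6 of 12 were higher and 6 lower, with Sfxn1, a mitochondrial serine carrier, at -0.14 (SE 0.0761). Of glutamine, glutamate and glutathione enzymes 5 of 15 were higher and 10 lower, with Arg1, the urea cycle arginase, at 0.78 (SE 0.439). Of proline and glycine enzymes 5 of 11 were higher and 6 lower, with P4ha1, a collagen prolyl hydroxylase subunit, at 0.17 (SE 0.0949).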

How the data were processed

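RNA from otic vesicles of 3 Mest-KO and 3 Control pools was read on Affymetrix mouse arrays. Per the labels' protocols, dispase was applied for 30 min at 37 °C and 300 ng of RNA went into the cRNA; Affymetrix Expression Console 1.1 is named by the submitters' processing notes. The deposited values are linear intensities that the authors scaled to a trimmed mean of 500 per array (2% trimmed at each end, as the values show); how probes were summarised and background was removed is not stated, and no detection calls were used here.

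The 64 control probe sets were left out, values were floored at 1, put on the log2 scale and quantile normalized. Genes were named from probe sets with 1 symbol, read from the probe set with the highest mean and tested when it lay above the 40th percentile (12462 genes, 27022 probe sets). The groups were tested by limma 3.58.1 (R 4.3.3) (no trend, no covariate), with Benjamini-Hochberg adjustment over all genes or probe sets at 0.05; the steps were tested on simulated data. Figures used matplotlib 3.10.9 in Python 3.11.15. Transporter genes were shown array by array by a rule: Slc36a2, the smallest p of each family, adjusted p under 0.10, the 6 brightest, non-overlapping groups with a change of at least 0.5, and the heavy chains; others were added to complete each family. The members and lists were chosen with earlier results of these data known. Intensities of different probe sets do not rank their transcripts.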

Additional observations from a re-analysis of the deposited data

How the results depend on the processing

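The number of transporter genes called, 0 at the main settings, was 1 with median centring, 1 with the trend and 1 with the trend and robust fitting, and the number of probe sets called was also 1 in each of these. The gene was Slc36a2 in each case. Over all genes, limma called 25 of 12459 with median centring and 13 of 12462 with the trend. With robust fitting added to the trend it called 16 of 12462. At the 60th percentile it called 7 of 9899 genes, and with the most variable probe set 1 of 9533. Both numbers were 0 in the other alternatives: no filter, the 60th percentile, which leaves Slc36a2 out of the test, the deposited scaling, a floor of 16, array weights, the replicate block, each array left out (range 0 to 0), the pools of one sex left out, a threshold of 0.10 and, for genes, the mean or the most variable probe set. The median change of transporter genes ran from -0.075 to 0.11 over its alternatives and from 0.016 to 0.11 with an array left out, which is within the spread between arrays. Median centring moved the median of all genes to -0.14 and raised the prior from 2.32 to 23.9 degrees of freedom, so its adjusted p of 4.10e-07 for Slc36a2 is read beside a range of up to 0.901 over the other settings; with the deposited scaling it was 0.0566. Of 15 genes followed through the alternatives, 9 kept their sign in all of them, Slc36a2, Slc1a1, Slc1a3 and Slc7a5 among them. With median centring Slc38a1 stood at -0.19, Slc38a2 at -0.13, Slc38a10 at -0.11 and Slc7a1 at -0.015, beside that shift of all genes. Slc38a1 was -0.038 with the deposited scaling. Without the pools of one sex Slc38a1 was -0.023, Slc38a2 -0.065 and Slc38a10 -0.0035. With an array left out Slc38a1 ran from -0.018 to 0.073, Slc38a2 from -0.016 to 0.11, Slc38a10 from -0.073 to 0.16 and Slc3a2 from -0.096 to 0.050. Slc43a2 was -0.0029 with the mean of its probe sets and -0.29 with the most variable one. The cause of these differences was not tested unless stated. The trend under other settings and arrays left out with probe sets chosen anew were added after seeing the data.

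The labels link arrays with the same replicate number by that number alone. The correlations of their deviations from the group means were -0.11, -0.0083 and -0.0073, and Mest-KO 1 went best with Control 3 (0.103). Whether same-numbered arrays shared a batch or litter was not tested. With the replicate block, 0 transporter genes and 0 probe sets were called, Slc36a2 had a change of -2.57 (limma adjusted p 0.834), and its adjusted p with the trend was 0.0351. With 3 arrays per group and probe sets near the filter, small changes of dim carriers such as Slc7a8, Slc7a12 and Slc1a1 were not detectable.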

Other observations

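A dim probe set of Slc38a10, below the filter, was 9.49, 5.56 and 121 in Mest-KO and 16.4, 2.78 and 0.942 in Control, so its high value was on Mest-KO 3. A second, brighter probe set of the gene was also highest on that array, with 162, 106 and 405 in Mest-KO and 194, 125 and 117 in Control. Other probe sets above the filter were highest there too, at 131 against 78.6 to 116 elsewhere and at 110 against 66.4 to 75.9. The probe set that reads Slc38a10 was lowest on Mest-KO 3 within its group, at 2169, as were the next brightest, at 1088 and 750. Mest-KO 3 is the array set off along the leading principal component, and its part in these values was not tested.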
